A study of Drosophila melanogaster with 6 samples.

Results

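The genes described here build the nuclear pore, carry cargo through it, or anchor the inner nuclear membrane. They were chosen by gene symbol: names beginning with Nup and a digit, and a written list of other pore, transport receptor, Ran cycle and lamina genes. Of 44 such genes, 39 had a probe set paired with that gene alone, out of 11982 genes measured. Each gene was represented by its brightest probe set. The lamin genes Lam and LamC had no single-gene probe set in the annotation used, nor did Gp210, Mtor and Nup58, and these 5 were not analysed here. The lamina is therefore represented by 4 inner membrane protein genes.

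RNA was measured on 6 arrays, 3 from each of 2 genotypes, in cells sorted for GFP from Drosophila melanogaster embryos that had been kept at 29 °C until late stage 11 or early stage 12. Both genotypes carried the driver twi-GAL4, active in Twist-expressing mesodermal cells, and the reporter UAS-2EGFP. The jumu group (twi-GAL4 UAS-2EGFP/UAS-jumu) in addition made the forkhead transcription factor Jumu from UAS-jumu in those cells, while the control group (twi-GAL4 UAS-2EGFP) is labelled with no transgene in that place. The series title concerns division of cardiac progenitor cells, and the comparison asks which transcripts differ when Jumu is in excess. The labels do not say whether arrays of a group came from separate embryo collections, and the p-values then rest on array-to-array variation that could be technical only.

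The nuclear pore is a ring of stacked protein complexes in the nuclear envelope: a Y-shaped outer scaffold on both faces, an inner ring that lines the pore, membrane-anchored proteins, a central channel of flexible repeats, cytoplasmic filaments and a nuclear basket. Importins and exportins carry cargo through the channel, and the small GTPase Ran gives them direction. In animal cells that divide, the envelope and its pores are partly or wholly taken apart and rebuilt, and the lamina with its inner membrane proteins ties the envelope to chromatin.

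Values are log2 signals after quantile normalization between arrays, and a change is the jumu mean minus the control mean. "Rose" and "fell" are used for genes with an adjusted p under 0.05 in limma, adjusted over 18769 probe sets. The transgene's own gene, jumu, rose by 2.11 ± 0.14 (SE, adjusted p = 0.0165), from 11.45 ± 0.11 to 13.56 ± 0.18 (SD, n = 3 each). It lost its call when any 1 array was left out (adjusted p 0.0628 to 0.104). The call was also lost with median centring (adjusted p = 0.06005) and with the replicate number as a block (adjusted p = 0.238).

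Marker genes moved with the genotype too, in lists that were written with earlier results of these data known. Over all 11982 genes 1.61% rose and 1.71% fell. All 7 measured mitosis markers (CycB, CycB3, aurB, scra, barr, Ndc80 and cid) rose, with a summed log2 level of 14.65 to 14.68 in the jumu arrays and 13.77 to 13.81 in controls. Of 11 nervous system markers 7 fell and 0 rose, with summed levels of 14.06 to 14.08 against 14.91 to 14.95; brp was near background in both groups. Of 7 epidermis and trachea markers 3 fell, with summed levels over all 7 of 11.65 to 11.69 against 12.63 to 12.65. Of 6 mesoderm markers 2 rose, htl and lmd, and the summed level of all 6 was 14.55 to 14.58 against 14.12 to 14.20. Such a sum follows the brightest genes of a list, here lmd (13.55 against 12.85) and zfh1 (12.78 against 12.79). The markers tin, Mef2 and stumps had no single-gene probe set. The other 4 did not pass: twi was at 9.90 in the jumu arrays and 9.20 in controls and bap at 9.24 against 8.73, while sna was at 10.07 against 10.56, a change of -0.49 ± 0.10 (SE, adjusted p = 0.07999) with all jumu arrays below the controls. The change of zfh1 was -0.01 ± 0.09 (SE). Fewer cells of a type and less RNA per cell cannot be told apart in such samples. The part of these shifts in the results below was not tested.

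With quantile normalization most pore genes had a higher signal in the jumu arrays, whereas importin genes had changes of both signs. A difference between pore and importin genes was not tested. All 39 changes were positive with scaling to hybridization or poly-A controls, where the median of genes with a signal over 9 was itself 0.58 and 0.93. Of the 39 genes 4 rose, Ote, Ndc1, Nup35 and Nup188, and 0 fell. Over all 11982 genes 1.61% rose and 1.71% fell, and among the 3950 genes with a mean log2 signal over 9, the range of 37 of the 39, 2.48% rose and 2.18% fell. A positive change was seen in 31 of the 39, against 48.8% of all genes and 49.3% of those with a signal over 9. At an unadjusted p under 0.05, 20 of the 39 were higher and 2 lower, against 10.8% and 11.7% of all genes. The median change was 0.30, against -0.0045 over genes with a signal over 9 and -0.01 over all genes. Their median signal was 10.68, 10.65 and 10.64 with jumu, above the 10.40, 10.40 and 10.42 of the controls. In 28 of the 39 every jumu array lay above every control array, and in 4 every jumu array lay below. Over all genes these shares were 16.6% and 17.5%, and over genes with a signal over 9 they were 28.7% and 29.3%.

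**Figure D1:**
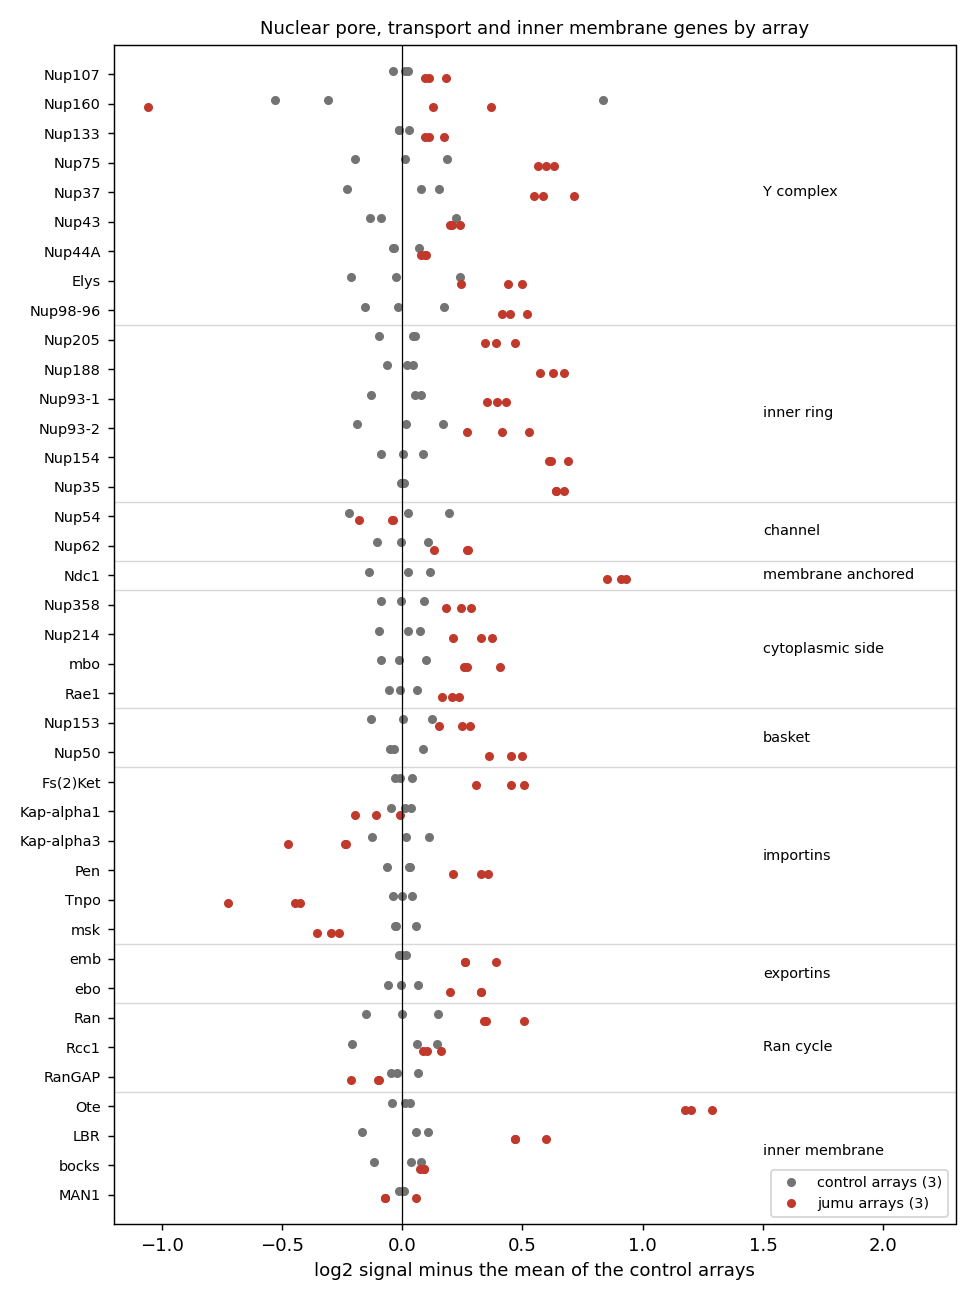
Log2 signal of each of the 39 genes on each array, minus the mean of that gene's 3 control arrays, by role; grey points are control arrays and red points jumu arrays. The jumu arrays of all 6 inner ring genes lie above their controls, Ote stands farthest to the right, and Tnpo, msk, Kap-alpha3 and RanGAP lie to the left without overlap, a side they leave when arrays are scaled to control probe sets.

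How many single genes passed depended on how the spread was estimated. The default variance prior used for the main test puts a similar floor under the standard error of bright and dim genes, although replicates of bright genes were closer: the median SD was 1.13 for probe sets with a mean from 3 to 6 and 0.09 from 9 to 12. With a prior that follows the intensity, 25 of the 39 passed upward and 3 downward, against 10.3% and 10.9% of all genes and 22.7% and 23.1% of genes with a signal over 9. With median centring and the same prior 28 passed upward and 0 downward (2043 and 314 over all probe sets). With quantile normalization and this prior, 22 to 27 passed in both directions together when 1 array was left out. Over all 18769 probe sets 2537 to 2794 passed in these fits. In all 6 such fits 19 genes passed upward and 2 downward, a count that was not taken over all genes. With the default prior, leaving out any 1 array left 0 of the 39 and 0 to 21 of all probe sets. Below, "passed with the trend" means an adjusted p under 0.05 with the intensity-following prior alone.

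**Figure D2:**
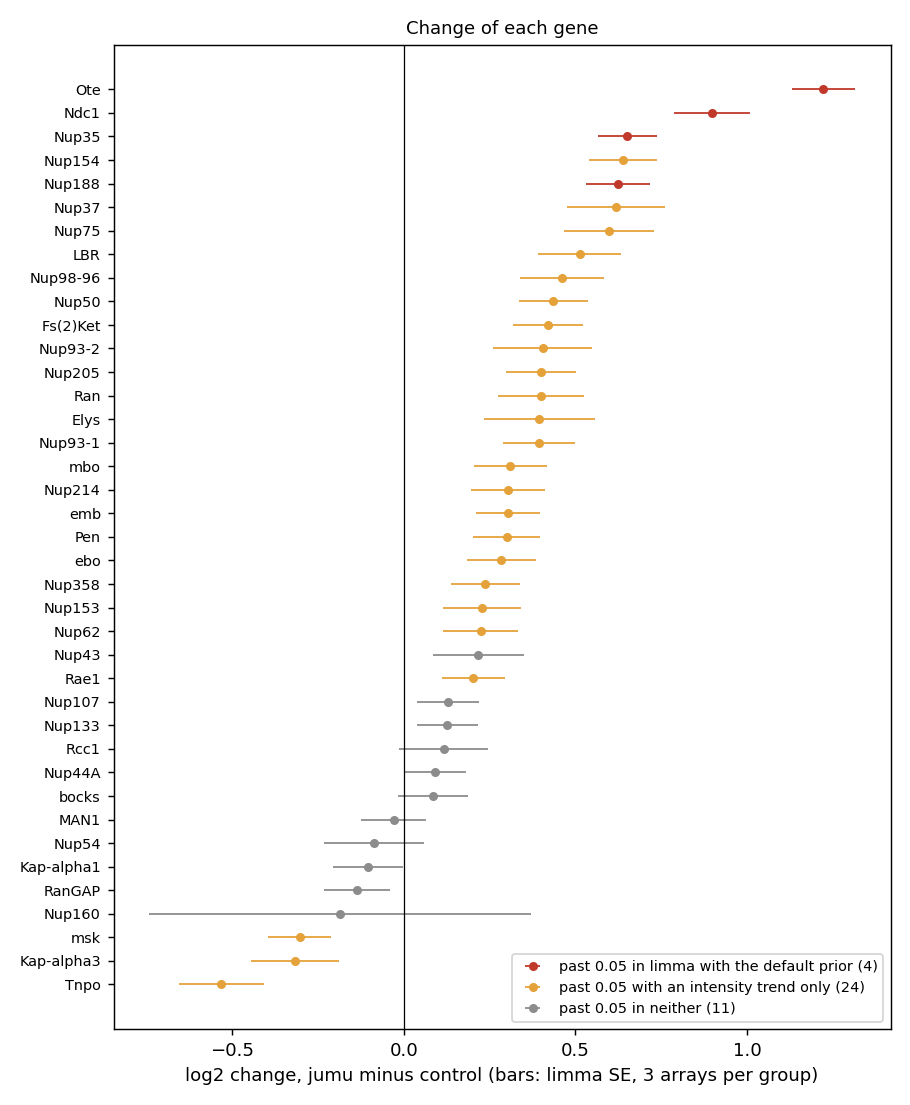
Log2 change (jumu minus control) of each of the 39 genes with its limma SE, in order of size. Red points are the 4 genes past the threshold with the default prior, orange points the 24 past it with the intensity trend only, and grey points the 11 past neither; the 3 lowest points are msk, Kap-alpha3 and Tnpo.

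The inner ring, which lines the pore and holds the scaffold to the membrane, had a higher signal throughout: all 6 measured genes had a positive change and no overlap between groups, with changes of 0.39 to 0.65 and a median of 0.51. Among genes with a signal over 9, 49.3% had a positive change and 28.7% had all jumu arrays above controls. Nup35, a small inner ring protein gene on the X chromosome, had signals of 12.03, 12.00 and 11.99 with jumu against 11.35, 11.36 and 11.35. The groups were well apart with the smallest standard error among the 39, and Nup35 rose by 0.65 ± 0.09 (SE, 1.57-fold, adjusted p = 0.0390). Nup188, a large scaffold subunit gene on 2R, had 10.12, 10.08 and 10.02 against 9.39, 9.49 and 9.47. It rose by 0.62 ± 0.09 (SE, 1.54-fold, adjusted p = 0.0478), just inside the threshold.

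Nup154, an inner ring gene on 2L known for its need in the fly germ line, lay just outside it. Its signals were 11.61, 11.54 and 11.54 against 10.84, 11.01 and 10.93, a change of 0.64 ± 0.10 (SE, adjusted p = 0.0502). All its jumu arrays were above all controls, and its change was close to that of Nup35. The other 3, the large scaffold gene Nup205 and the paralogs Nup93-1 and Nup93-2, had smaller changes of 0.40 ± 0.10, 0.39 ± 0.11 and 0.40 ± 0.14 (SE, adjusted p 0.121, 0.135 and 0.224) and passed with the trend. The paralogs lie on different chromosomes, X and 3R.

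Ndc1, which encodes a membrane-spanning pore protein and lies on 3R, had the largest change among the pore genes. Its signals were 10.50, 10.56 and 10.58 with jumu against 9.51, 9.77 and 9.67. All jumu arrays were thus above all controls, and Ndc1 rose by 0.90 ± 0.11 (SE, 1.86-fold, adjusted p = 0.0356). Only 53 of the 3950 genes with a signal over 9 had a larger positive change. Ndc1 is the one membrane-anchored pore gene measured.

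The outer scaffold was less uniform. Of 9 genes of the Y complex 0 rose and 0 fell, 8 had a positive change, 7 had no overlap, and 4 passed with the trend (3 had an unadjusted p under 0.05, all higher). Among genes with a signal over 9, where 7 of the 9 lay, 28.7% had all jumu arrays above controls and 22.7% passed upward with the trend. The median change was 0.22. Nup75 had 11.16, 11.23 and 11.20 against 10.40, 10.61 and 10.78, a change of 0.60 ± 0.13 (SE, adjusted p = 0.0956). Nup37 had 8.99, 9.12 and 8.95 against 8.48, 8.17 and 8.56, a change of 0.62 ± 0.14 (SE, adjusted p = 0.105). Both had wider spread in the controls than in the jumu arrays.

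The scaffold genes Nup107 and Nup133, by contrast, changed by 0.13 ± 0.09 and 0.13 ± 0.09 (SE, adjusted p 0.522 and 0.525) at signals of 10.19 and 10.41 in controls. Their groups did not overlap, but the gap was small. Nup44A, encoding the fly Seh1 protein, was at 0.09 ± 0.09 and Nup43 at 0.22 ± 0.13, with overlapping groups in the latter. Nup98-96, a gene that encodes 2 pore proteins as one precursor, had 10.33, 10.40 and 10.30 against 10.05, 9.86 and 9.73, a change of 0.46 ± 0.12 (SE, adjusted p = 0.135). Elys, which links new pores to chromatin after mitosis in animal cells, was at 0.40 ± 0.16 (SE, adjusted p = 0.276). Whether Nup75 and Nup37 differ from Nup107 and Nup133 in their change was not tested.

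Nup160, another scaffold gene, could not be read in this way. Its signal was 6.28, 6.04 and 4.86 with jumu against 5.39, 6.75 and 5.61, with SDs of 0.76 and 0.73. It was the dimmest of the 39 and the one with a mean under 6, where replicates of all genes differed widely, and its change of -0.19 ± 0.56 (SE) has no direction.

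Of the channel genes Nup62 was at 0.22 ± 0.11 and passed with the trend, and Nup54 was at -0.09 ± 0.14 with overlapping groups. All 4 genes of the cytoplasmic side had a positive change without overlap, in a narrow range of 0.20 to 0.31, and all 4 passed with the trend though 0 rose (2 had an unadjusted p under 0.05, both higher). They were Nup358, encoding the SUMO- and Ran-binding filament protein, at 0.24 ± 0.10, Nup214 at 0.30 ± 0.11, its partner mbo at 0.31 ± 0.11 and the mRNA export factor gene Rae1 at 0.20 ± 0.09 (SE). In the basket, Nup50 had 11.45, 11.31 and 11.40 against 11.04, 10.90 and 10.92, a change of 0.44 ± 0.10 (SE, adjusted p = 0.103). Nup153, the other basket gene, was at 0.23 ± 0.11. Over all 24 measured pore genes 3 rose, 22 had a positive change, 21 had jumu arrays all above controls and 0 had them all below, and the median change was 0.35. Among genes with a signal over 9, where 22 of the 24 lay, these shares were 2.48%, 49.3%, 28.7% and 29.3%, and 22.7% passed upward with the trend.

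**Figure D3:**
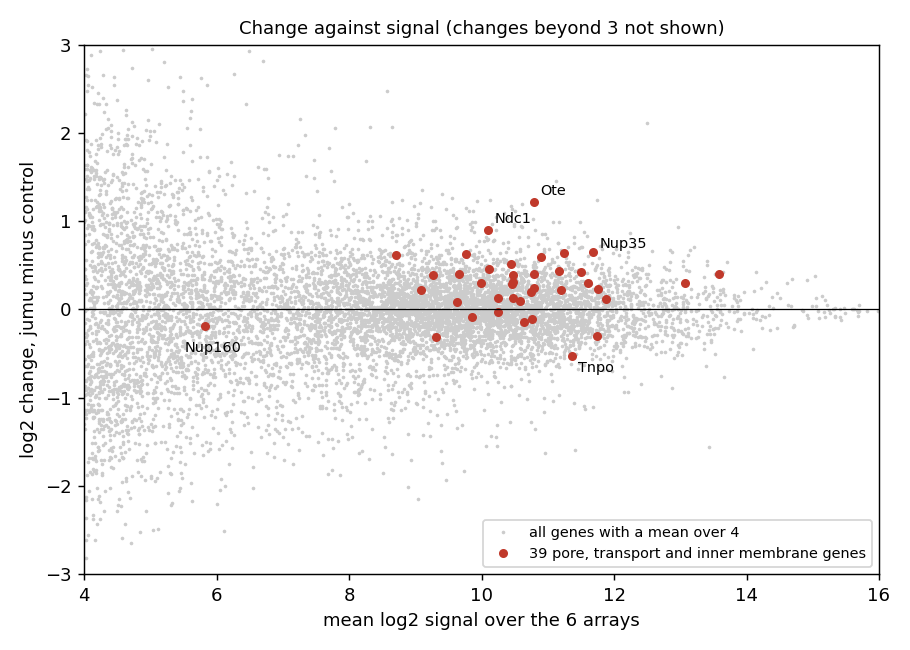
Log2 change (jumu minus control) against mean log2 signal for all genes with a mean over 4 (grey) and for the 39 genes (red). The spread of all genes narrows with signal; 37 of the 39 lie over a signal of 9, most of them above 0, with Ote highest, Tnpo lowest and Nup160 in the noisy range.

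Importin genes had changes of both signs. Of 6 measured, 0 rose and 0 fell. Jumu arrays were all above controls in 2 and all below in 3, and the same 5 passed with the trend (2 of each direction had an unadjusted p under 0.05). Among genes with a signal over 9, 28.7% had them all above and 29.3% all below, and 22.7% and 23.1% passed with the trend. The classical route uses importin beta, encoded by Fs(2)Ket, with an importin alpha adaptor. Fs(2)Ket had 11.60, 11.80 and 11.74 against 11.28, 11.33 and 11.26, a change of 0.42 ± 0.10 (SE, adjusted p = 0.113). Its other probe set had a change of 0.36 ± 0.11 (SE, adjusted p = 0.181), also without overlap.

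The 3 importin alpha genes did not move together. Pen, encoding the adaptor pendulin, had 11.66, 11.81 and 11.78 against 11.48, 11.39 and 11.48, a change of 0.30 ± 0.10 (SE, adjusted p = 0.195). Kap-alpha1 was at -0.10 ± 0.10 (SE, adjusted p = 0.656) with overlapping groups. Kap-alpha3 had 9.23, 9.24 and 8.996 against 9.58, 9.35 and 9.49, so that all jumu arrays were below the controls, by -0.32 ± 0.13 (SE, adjusted p = 0.271).

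Tnpo and msk encode receptors that bind cargo without importin alpha, and neither passed the main threshold. Tnpo, encoding transportin, which imports RNA-binding proteins, had 10.90, 11.20 and 11.18 against 11.59, 11.67 and 11.62, with no overlap. This change of -0.53 ± 0.12 (SE, adjusted p = 0.106) was the lowest of the 39. The product of msk is moleskin, the importin of activated MAP kinase in flies; the gene had 11.55, 11.64 and 11.61 against 11.87, 11.96 and 11.87, a change of -0.30 ± 0.09 (SE, adjusted p = 0.171). Both passed with the trend, in all 6 fits without 1 array. The change of Tnpo, msk and Kap-alpha3 was -0.51, -0.29 and -0.28 as deposited. With median centring it was -0.24 ± 0.24 for Tnpo and close to 0 for msk (-0.02 ± 0.20) and Kap-alpha3 (-0.008 ± 0.19, SE), and with the trend added to that centring 0 of the 39 passed downward. It was positive with scaling to the hybridization controls (0.06, 0.28 and 0.29) or to poly-A controls (0.41, 0.63 and 0.64), where the median of genes over 9 was itself 0.58 and 0.93.

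Exportin genes were slightly higher. The general exportin gene emb (Crm1), which exports proteins with a leucine-rich signal, had 13.18, 13.31 and 13.18 against 12.94, 12.91 and 12.92, a change of 0.30 ± 0.09 (SE, adjusted p = 0.177). The exportin gene ebo was at 0.28 ± 0.10 (SE, adjusted p = 0.217). Neither had overlapping groups, and both passed with the trend. In the Ran cycle, Ran itself, the brightest of the 39, had 13.73, 13.74 and 13.90 against 13.54, 13.39 and 13.24, a change of 0.40 ± 0.13 (SE, adjusted p = 0.180). Its regulators were closer to 0: Rcc1, the chromatin-bound exchange factor gene that makes Ran-GTP, at 0.12 ± 0.13 with overlap, and RanGAP, whose protein turns Ran-GTP over in the cytoplasm, at -0.14 ± 0.10 (SE, adjusted p 0.708 and 0.531).

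Among the inner nuclear membrane genes one stood far above the rest. Ote encodes otefin, a LEM-domain protein (a domain that binds the chromatin factor BAF) known in flies for its part in keeping germ line stem cells. Its signals were 11.46, 11.35 and 11.38 with jumu against 10.13, 10.19 and 10.21. Every jumu array was more than 1 log2 unit above every control, and Ote, which lies on 2R, rose by 1.22 ± 0.09 (SE, 2.33-fold, adjusted p = 0.0220). Of the 3950 genes with a signal over 9, 10 had a larger positive change.

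The other LEM-domain genes did not follow it. Signals of bocks were 9.68, 9.68 and 9.66 against 9.47, 9.63 and 9.67, and its change was 0.09 ± 0.10 (SE, adjusted p = 0.730). MAN1 had 10.32, 10.19 and 10.19 against 10.27, 10.25 and 10.26, a change of -0.03 ± 0.09 (SE, adjusted p = 0.911). Both had overlapping groups; whether they differ from Ote in their change was not tested. LBR, encoding the lamin B receptor, had 10.79, 10.65 and 10.66 against 10.02, 10.24 and 10.29, a change of 0.51 ± 0.12 (SE, adjusted p = 0.108), and passed with the trend.

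The 4 genes that rose kept their direction in all 25 alternatives and passed in 16. Their calls were lost with median centring (adjusted p = 0.0862 for Ote, 0.129 for Ndc1, 0.149 for Nup35 and 0.152 for Nup188), with scaling to hybridization controls (0.0587 to 0.0701), with a replicate block (0.238 to 0.267) and without any 1 array. Without 1 array the change of Ote was 1.19 to 1.24 (adjusted p 0.0809 to 0.107), that of Ndc1 0.83 to 0.95 (0.0953 to 0.134), that of Nup35 0.64 to 0.66 (0.114 to 0.146) and that of Nup188 0.59 to 0.65 (0.123 to 0.170).

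The scaling between arrays set the zero of every change. Over all probe sets 255 rose and 264 fell; with median centring 20 rose and 0 fell, with hybridization controls 31 and 0, and with poly-A controls 7301 and 124. The median of all genes was -0.01 with quantile normalization, -0.08 as deposited, and 0.19, 0.49 and 0.84 with these 3 scalings. The median of the 39 genes moved along with it, to 0.27, 0.54, 0.83 and 1.19. Relative to genes with a signal over 9 it was 0.30 higher with quantile normalization and 0.26 higher with each of the other 4. Those 4 scalings differ only by a constant per array, so their equal values follow by construction. With quantile normalization, and likewise with those 4, 31 of the 39 lay above the median of genes with a signal over 9. The genes with a negative change as reported, Nup54, Kap-alpha1, RanGAP and MAN1, turned positive with median centring, and those 4, Nup160, Tnpo, msk and Kap-alpha3 did so with either set of control probe sets.

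**Figure D4:**
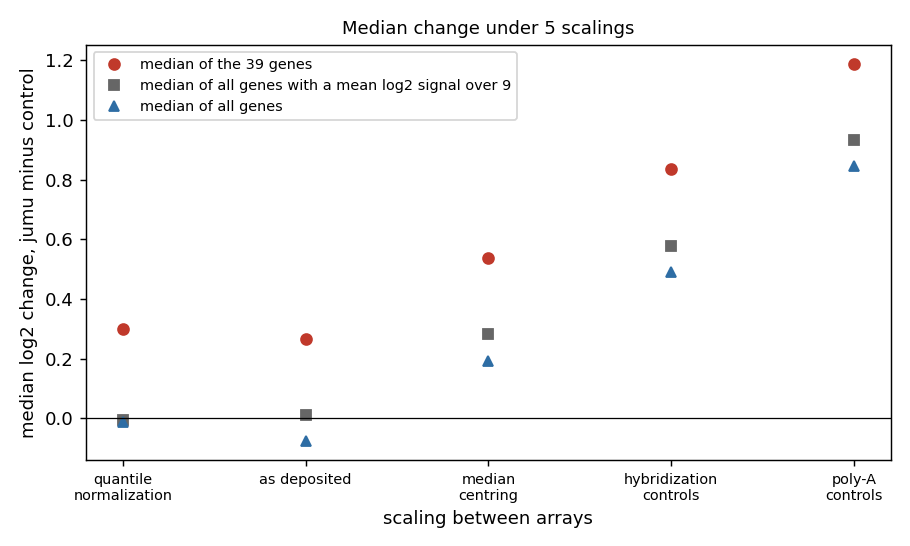
Median log2 change (jumu minus control) of the 39 genes (red circles), of all genes with a mean log2 signal over 9 (grey squares) and of all genes (blue triangles) under 5 scalings between arrays. All 3 medians move up together to 1.19, 0.93 and 0.84 with poly-A controls, and the red circle lies 0.26 to 0.30 above the grey square in each. The scalings other than quantile normalization differ only by a constant per array, so that distance is the same in them by construction.

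The 39 genes were also listed by chromosome arm, with only 4 to 11 genes on each. All 7 on X (Elys, Nup205, Nup93-1, Nup35, Nup153, ebo and Ran) had jumu arrays above controls, with changes of 0.23 to 0.65. Over genes of all arms with a signal over 9, 28.7% had them above. Of 11 on 2R 9 had a positive change, as did 9 of 10 on 3R, 5 of 7 on 2L and 1 of 4 on 3L, where Tnpo, msk and Kap-alpha1 were negative under this scaling and Rcc1 positive. Among genes with a signal over 9 the share with a positive change was 50.5% on X, 49.5% on 2R, 48.6% on 3R, 53.2% on 2L and 44.9% on 3L. No difference between arms was tested.

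Other genes of nuclear transport, the envelope and the SUMO pathway, which modifies proteins at the pore, were taken from a separate list of 45 entries that gave 39 measured genes. Of these 3 rose and 0 fell, 17 passed upward and 2 downward with the trend, 28 had a positive change, and the median was 0.18. Over all genes 1.61% rose and 1.71% fell, 10.3% and 10.9% passed upward and downward with the trend, and 48.8% had a positive change. Of genes with a signal over 9, where 32 of the 39 lay, 22.7% and 23.1% passed with the trend. All jumu arrays lay above controls in 28.7% of genes with such a signal. Aos1 and Uba2, which encode both subunits of the SUMO-activating enzyme, rose by 0.70 ± 0.09 (SE, adjusted p = 0.0367) and 0.66 ± 0.09 (SE, adjusted p = 0.0421). Aos1 had a signal of 11.81 ± 0.04 against 11.11 ± 0.01, and Uba2 12.91 ± 0.03 against 12.24 ± 0.07 (SD, n = 3). The other 3 SUMO genes also had jumu arrays above controls, with the SUMO protease gene Ulp1 at 0.45 ± 0.11, the ligase gene Su(var)2-10 at 0.53 ± 0.13 and Sumo itself at 0.15 ± 0.09 (SE), or -0.10 as deposited. Without any 1 array Aos1 and Uba2 were not called (adjusted p 0.111 to 0.140 and 0.117 to 0.150), nor with median centring (0.135 and 0.154), scaling to hybridization controls (0.0698 and 0.0736) or the replicate number as a block (0.251 and 0.257).

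The third that rose was klar, which encodes a KASH-domain protein of the bridge between envelope and cytoskeleton, by 4.15 ± 0.20 (SE, adjusted p = 0.0114), from 7.10 ± 0.35 to 11.25 ± 0.06 (SD, n = 3). Its call was lost without any 1 jumu array or control replicate 1 (adjusted p up to 0.103, change 3.997 to 4.33), and with the replicate number as a block (adjusted p = 0.238). The SUN-domain gene koi was at 0.43 ± 0.12, or -0.12 as the mean of its probe sets. Msp300, another KASH gene, was at -0.43 ± 0.19 with overlapping groups, and positive (0.10 and 0.46) when arrays were scaled to either set of control probe sets. The gene baf encodes the fly BAF, which LEM-domain proteins bind, and was at 0.50 ± 0.10 (SE, adjusted p = 0.0770) with a control signal of 13.15.

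Of 9 further transport genes 0 rose and 0 fell (3 had an unadjusted p under 0.05, all higher). With the trend 3 passed upward, against 22.7% of genes with a signal over 9. They were RanBP3 at 0.45 ± 0.10, Ranbp16 at 0.45 ± 0.10 and Cse1, encoding the exportin that returns importin alpha to the cytoplasm, at 0.42 ± 0.11 (SE, adjusted p 0.0871, 0.0930 and 0.126). Of 16 measured genes listed under RNA export 0 rose and 0 fell (1, nxf2, had an unadjusted p under 0.05), with a median of 0.11. In that list sbr had no single-gene probe set. The change of nxf2, whose role in RNA export was not examined here, was 0.57 ± 0.10 (SE, adjusted p = 0.0654). Sec13, shared by the Y complex and the COPII vesicle coat, had 10.83 ± 0.02 against 11.25 ± 0.08 (SD, n = 3) with no overlap, a change of -0.43 ± 0.10 (SE, adjusted p = 0.0984) that became 0.18 with scaling to hybridization controls and 0.53 with poly-A controls.

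**Figure D5:**
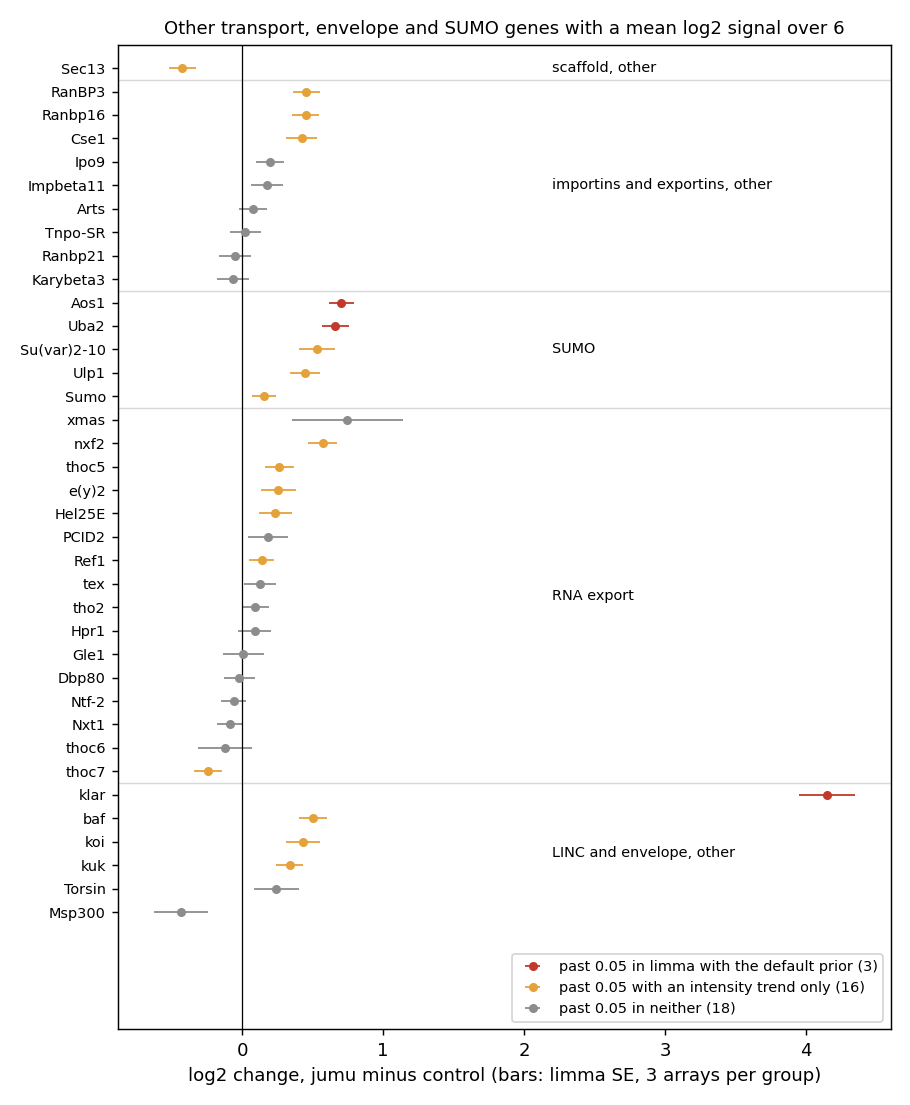
Log2 change (jumu minus control) with limma SE of the 37 other transport, envelope and SUMO genes with a mean log2 signal over 6, by list; red points passed with the default prior, orange points with the intensity trend only, grey points with neither. All 5 SUMO genes lie right of 0, klar stands alone at 4.15, and Sec13 at the top lies left of 0 under this scaling.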

How the data were processed

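The deposited table held 18952 probe sets on 6 arrays as log2 signals; base 2 was inferred from values of -1.73 to 16.4, and the authors' arrays were processed with affy, per the submitters' processing notes. The version, background correction, normalization and probe summary were not given in the sources used here. Because array medians ran from 5.09 to 5.64, quantile normalization was applied. After 183 control probe sets were left out, 18769 entered limma 3.58.1 (R 4.3.3; lmFit and eBayes, two-sided, no covariates; prior with 0.94 degrees of freedom) and Benjamini-Hochberg adjustment at 0.05. In the annotation 13647 probe sets had 1 gene, 402 several and 4720 none or no entry; 13544 symbols were matched by gene identifier to RefSeq (Release 6), which also gave chromosome arms. Coordinates are not given here. A gene was represented by its brightest probe set. Of the 39 genes 8, among them Tnpo, Kap-alpha3, Ran, LBR and Fs(2)Ket, were read by probe sets of the _s_at type, which can share sequence with other transcripts. Some genes overlap another gene in position. Among those that rose, Ndc1 overlaps CG13601 and Nup35 overlaps Hou, while Ote and Nup188 have no overlapping gene listed. Nup154 overlaps Art8. Whether a probe set also reads the overlapping gene was not tested.

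All 39 genes are named. The others named are jumu, and from the list of related genes those past the threshold and the next smallest p; koi, Msp300, Cse1, Sec13, Ulp1, Su(var)2-10 and Sumo were chosen after their values were seen. So were the marker genes named from the marker lists: mitosis, mesoderm, blood, endoderm and germ line markers, and brp. Members and lists were chosen with earlier results of these data known. The test was tried on simulated data. Precision is limited by the number of arrays.

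Marker lists for blood, fat body, endoderm and germ line were also measured. Over all genes 1.61% rose and 1.71% fell, and 10.3% and 10.9% passed upward and downward with the trend. All jumu arrays lay above controls in 16.6% of all genes and below in 17.5%. In the blood list 2 of 9 fell (PPO1 and Pxn) and 0 rose, while the other 7 had a positive change, 6 of them with all jumu arrays above controls. With the trend 5 passed upward and 2 downward, and the median was 0.51. The summed log2 level of the blood list was nevertheless lower with jumu, at 14.06 to 14.08 against 14.20 to 14.26. He was at 6.65 in the jumu arrays and 1.69 in controls and Hml at 7.99 against 3.13, with the control means near background. The change of srp, also in the fat body list, was 0.51 ± 0.10 (SE, adjusted p = 0.0837 by limma). The part of blood cells in the results was not tested. In fat body 0 of 3 passed (1 had an unadjusted p under 0.05, and 1 passed upward with the trend), in endoderm 1 of 3 fell (hkb), and in germ line 1 of 2 rose (bam).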

Additional observations from a re-analysis of the deposited data

How the results depend on the processing

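The main test called 519 probe sets and 4 of the 39 genes, with a median change of 0.30 over the 39. The alternatives called 20 and 0 with median centring (median 0.54), 31 and 0 with hybridization controls (0.83), 7425 and 38 with poly-A controls (1.19), 2930 and 25 over a log2 signal of 6, 2580 and 21 above the median level, 3096 and 28 with an intensity trend, 3094 and 28 with a robust trend, and 2357 (2043 up, 314 down) and 28 (28 up, 0 down) with median centring and the trend (0.54). The median was 0.27 as deposited. Without 1 array the counts were 0 to 21 probe sets and 0 of the 39 genes with the default prior, and 2537 to 2794 and 22 to 27 with the trend; the median was 0.26 to 0.31. With array weights, as deposited, or with probe sets of a gene averaged, 5 of the 39 were called.

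Deviations of same-numbered arrays were little correlated (r of -0.0118, 0.0026 and 0.0097), over a range in which most probe sets were dim. With a signal over 9 r was -0.0772, 0.0449 and 0.032, and it ran from -0.1137 to 0.0838 for arrays of unlike number. With the replicate number as a block, 0 probe sets and 0 of the 39 genes were called, and with block and trend 2955 and 28.

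Among single genes, 8 with a negative change turned positive. With median centring, with or without the trend, Nup54 was at 0.22, Kap-alpha1 at 0.20, RanGAP at 0.16 and MAN1 at 0.27. With hybridization controls Nup160 was at 0.13, Nup54 at 0.51, Kap-alpha1 at 0.50, Kap-alpha3 at 0.29, Tnpo at 0.057, msk at 0.28, RanGAP at 0.46 and MAN1 at 0.57. With poly-A controls they were at 0.48, 0.87, 0.85, 0.64, 0.41, 0.63, 0.81 and 0.92, in that order. Without 1 array Nup160 ran from -0.47 to 0.24 and Nup54 from -0.20 to 0.011. Of the related genes, Sec13 was at 0.18 and Msp300 at 0.10 with hybridization controls and at 0.53 and 0.46 with poly-A controls, Sumo was at -0.10 as deposited, and koi at -0.12 with its probe sets averaged. By construction a scaling shift moves all genes of an array alike; other causes were not tested. Low signal limits Nup160.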
